A study of Macaca mulatta with 39 samples.

Results

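The genes described here are the fibroblast growth factor (FGF) ligands, their receptors, the adaptors that couple a receptor to RAS, and the Sprouty, SPRED, dual-specificity phosphatase (DUSP) and ETS-factor genes that restrain or follow the signal. They were chosen by symbol, with earlier results of these data known: every numbered FGF, FGFR1 to FGFR4, FGFRL1, SPRY1 to SPRY4, SPRED1 to SPRED3, DUSP4 to DUSP7, ETV1, ETV4, ETV5, FRS2, FRS3, SHC1, GRB2 and SOS1, wherever the array's annotation names them. That gave 36 of the 14132 genes measured, namely 11 paracrine ligands, 3 endocrine ligands, 4 intracellular FGFs, 5 receptors, 4 adaptors, 4 Sprouty and SPRED genes, 3 ERK phosphatases and 2 ETS factors. The 36 genes had 72 probe sets, and each gene is represented by its brightest one; 17 had a single probe set. DUSP6, ETV5, FGF1, FGF7, FGF8, FGF10, FRS2, SPRED1, SPRED3 and SPRY3 were not analysed here.

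Messenger RNA of rhesus macaque cells was measured on 39 oligonucleotide arrays, of which 36 are used. Embryonic stem cells (ESCs) came from a pedigreed bank, with C3106 a male and C3806 a female line. The lines were injected into immune-compromised mice, and fibroblasts were grown out of the teratomas: 5 cultures of line 3106 (TA31 to TE31) and 3 of line 3806 (TA38 to TC38). Skin fibroblasts (M032, M088 and M106p1) were grown from explants of parent animals whose gametes gave the lines. No group carried a transgene or a treatment according to the labels. The sources used here do not say which animal parented which line, how old the animals were, which mouse strain was used or whether mouse cells were removed from the explants. The labels call the 3 arrays of a culture biological triplicates, without saying that they were grown separately. Each ESC line, teratoma and animal is thus a single culture, and the comparisons of cell types rest on 2 ESC lines, 8 teratoma cultures and 3 skin cultures.

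FGFs bind receptor tyrosine kinases together with heparan sulfate, and the activated receptor recruits FRS, GRB2 and SOS proteins that switch on RAS and the ERK kinases. Sprouty, SPRED and DUSP proteins damp this route, and many of their genes are themselves switched on by ERK, as are the ETS factors of the ETV1, ETV4 and ETV5 group. Primate ESCs are commonly grown with added FGF2, and fibroblasts both secrete and answer FGFs.

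Values are log2 signals, so a difference of 1 is a 2-fold change of signal, and levels of different genes cannot be compared because each probe set binds with its own strength. Mean marker levels matched the labelled cell types. The mean log2 signal of 6 pluripotency genes was 11.42 and 11.51 in the ESC lines, 5.62 to 5.82 in the teratoma cultures and 5.51 to 5.62 in skin. That of 8 fibroblast genes was 6.60 and 6.68, 11.38 to 11.82 and 11.36 to 11.58. Not all of the 8 were set apart. THY1 was 10.37 and 10.11 in the ESC lines, inside the fibroblast range of 8.35 to 11.32. COL3A1 differed little, at 7.68 and 7.87 in the ESC lines and 8.05 to 8.82 in fibroblasts. Muscle genes stood out in 2 teratoma cultures: the mean of 12 skeletal muscle genes was 8.79 in TB31 and 8.61 in TD31, against 5.67 to 7.14 in the other teratoma cultures. Arrays C3806c, M106p1f and TB31c were left out by the rule that chose the genes, not by the distances given here. Over the 36 FGF genes they lay 1.04, 1.30 and 1.18 log2 units (root mean square) from the mean of their own culture. Each array used lay 0.10 to 0.58 from the mean of the other arrays used of its culture. On array C3806a the actin probes near the 3′ end exceeded those near the 5′ end by 3.89 log2 units, against 0.26 to 0.76 on the other ESC arrays, 0.02 to 0.78 on teratoma and 0.05 to 0.59 on skin arrays. Line C3806 is the mean of C3806a and C3806b, so results resting on it are also given without C3806a where that changes the call.

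A call needed both of 2 conditions: an adjusted p under 0.05 from limma (Benjamini-Hochberg, all 14132 genes) and a log2 difference of 1 or more in size. The members called between ESCs and fibroblasts were a paracrine ligand, receptors, Sprouty and SPRED genes, an ERK phosphatase and an ETS factor, and no endocrine ligand, intracellular FGF or adaptor was called. Against teratoma fibroblasts 6 of 36 members were called (16.7%), beside 14.5% of all genes. The 3 higher in ESCs were the ETS factor ETV4 and the feedback genes SPRY4 and SPRY1 (6.28% of all genes were called higher). The 3 lower were the ligand FGF5, the decoy-type receptor FGFRL1 and the inhibitor SPRED2 (8.18% of all genes were called lower). Against skin fibroblasts 5 members were called (13.9%), beside 20.0% of all genes. FGFR2 and ETV4 were higher in ESCs, where 10.2% of all genes were, and FGF5, SPRED2 and DUSP4 were lower, where 9.77% were. Teratoma and skin fibroblasts differed at 1 member, ETV1, which was lower in teratoma cultures, beside 1.20% of all genes called and 0.545% called lower. The shares of members called lay near those of all genes. The comparisons with ESCs share the same ESC lines and are given side by side. In all, 27 members were called in none of the 3 comparisons, 6 in 1 and 3 in 2.

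The median difference over the members was 0.12 for ESCs minus teratoma, 0.07 for ESCs minus skin and -0.07 for teratoma minus skin, against 0.02, 0.03 and 0.01 over all genes. The members did not move as a block. For 18 of 36 the 13 culture means spanned less than 1 log2 unit, from 0.26 for the adaptor FRS3 to 0.93 for the phosphatase DUSP5. Each array measured a whole culture, so fewer cells of a type and less RNA per cell cannot be told apart in any of these differences.

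**Figure D1:**
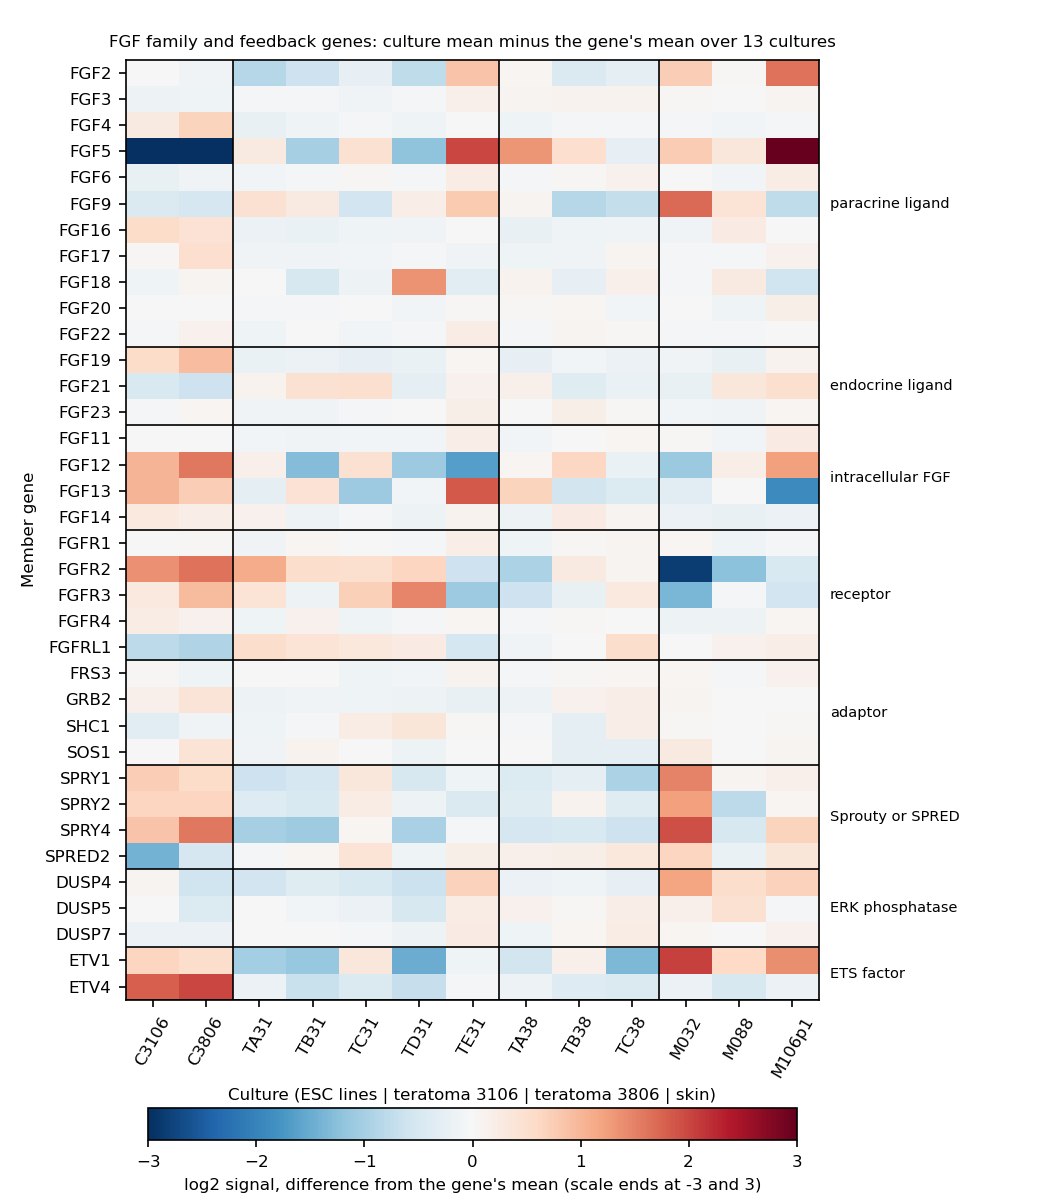
Culture means of the 36 members (vertical axis, grouped by role) in 13 cultures (horizontal axis), each coloured by its log2 difference from that gene's mean over the cultures, with colours ending at -3 and 3. FGF5 is low in both ESC lines (4.66 and 4.65), ETV4 is high in them (10.19 and 10.39), FGFR2 is lowest in skin culture M032 (5.66), and FGFR1, FGF20, FGF23 and FRS3 hardly vary.

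FGF5 had the widest span of any member, 6.23 log2 units over the cultures. FGF5 is a secreted ligand best known for ending the growth phase of hair, and it is also a marker of the epiblast in mouse. The 3 arrays of line C3106 gave 4.53, 4.70 and 4.76, and those of C3806 gave 4.46 and 4.84. Teratoma culture means were 6.59 in TD31, 6.81 in TB31, 7.56 in TC38, 8.08 in TA31, 8.27 in TC31, 8.30 in TB38, 9.14 in TA38 and 9.82 in TE31. Skin arrays ran from 7.97 through a median of 8.53 to 10.89. Every ESC array lay below every fibroblast array, and skin and teratoma cultures overlapped. The ESC values lay below the lower quartile of gene means (6.17), and whether they exceeded background was not tested. The mean was 4.66 ± 0.01 in ESCs (SD, n = 2 lines), 8.07 ± 1.09 in teratoma (n = 8 cultures) and 9.20 ± 1.48 in skin (n = 3 cultures). ESCs were lower than teratoma by limma (log2 difference -3.46, SE 0.89, adjusted p = 0.0106) and lower than skin (-4.54, SE 1.02, adjusted p = 0.0047). The difference from skin was -3.70 without M106p1 and -5.07 without M088. These estimates average the teratoma cultures of each line first, so they can depart slightly from the difference of the plain means.

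All 8 teratoma cultures were above the ESCs in FGF5 when each was tested alone over its arrays, by 1.93 to 5.16. The lowest fibroblast cultures for FGF5 were TD31 and TB31, which were also those with the most skeletal muscle signal (8.61 and 8.79). The next in muscle signal, TA38 (7.14) and TB38 (6.99), had higher FGF5 (9.14 and 8.30). The part of muscle cells in the FGF5 values was not tested. Without TB31 and TD31 the call against teratoma held. A weaker probe set of FGF5 gave the same order of cell types with a smaller contrast: 6.48 and 6.63 in the ESC lines, 6.77 to 8.05 in teratoma and 7.10 to 8.63 in skin. On that probe set the differences were -0.69 (adjusted p = 0.214) and -1.13 (adjusted p = 0.076) by limma, and neither was called. With 1 ESC line left out the difference from teratoma stayed near its size (-3.47 without C3106, adjusted p = 0.0504, and -3.46 without C3806, adjusted p = 0.0572), and adjusted p ran from 3.58e-07 to 0.214 over 25 alternatives.

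FGF2, the ligand of primate ESC medium, was not called between the cell types. The ESC arrays gave 8.76, 8.22 and 8.88 for C3106 and 8.19 and 8.80 for C3806. Teratoma cultures ran from 7.74 in TA31 through a median of 8.23 to 9.45 in TE31, and skin cultures were 8.64 in M088, 9.33 in M032 and 10.23 in M106p1. The ESC lines lay within the teratoma range and just below the lowest skin culture. ESCs minus teratoma was 0.23 (SE 0.46, limma adjusted p = 0.736), ESCs minus skin -0.84 (SE 0.53, adjusted p = 0.243) and teratoma minus skin -1.07 (SE 0.40, adjusted p = 0.144). Tested singly, 6 of 8 teratoma cultures were below skin in FGF2 and TE31 was level with it. Without TE31, and also with culture as a random block, FGF2 was called lower in teratoma than in skin.

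FGF4, FGF16 and FGF17 had adjusted p under 0.05 in both comparisons with ESCs, at differences below the called size. FGF4, a ligand switched on by pluripotency factors in mouse, read 4.15, 4.34 and 3.75 on the C3106 arrays and 4.35 and 4.60 on those of C3806. Teratoma culture means for FGF4 were 3.59 to 3.80 and skin 3.73 to 3.78. The ESC line means of 4.08 and 4.48 lay above every fibroblast culture, although 1 array of C3106 overlapped them. All these FGF4 values lay well below the lower quartile of gene means (6.17). No detection call was used, so whether the FGF4 signal exceeded background was not tested, nor was it for any other member. Culture means of FGF17, and those of FGF16 except in C3106, also lay below 6.17. So did the ESC line means of DUSP4 (5.84 and 5.17). FGF4 differed by 0.56 (SE 0.07, limma adjusted p = 0.000125) from teratoma and by 0.52 (SE 0.08, adjusted p = 0.000428) from skin. FGF16 gave 0.63 (adjusted p = 0.00042) and 0.45 (adjusted p = 0.00629), and FGF17 gave 0.32 (adjusted p = 0.00666) and 0.24 (adjusted p = 0.0464). For FGF17 the ESC arrays read 5.51, 5.66 and 5.42 in C3106 and 5.19 and 6.81 in C3806, beside teratoma cultures of 5.38 to 5.59 and skin of 5.46 to 5.63. Of the ESC arrays only C3806b, at 6.81, lay above every fibroblast array, and the mean of C3106 (5.53) lay within the range of the fibroblast cultures.

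FGF9 and FGF18 varied among fibroblast cultures and were not called between cell types. FGF9, which acts on mesenchyme and on muscle precursors, was 5.37 and 5.30 in the ESC lines, 4.95 to 6.59 in teratoma and 5.04 to 7.50 in skin, with M032 highest. FGF9 gave -0.34 for ESCs minus teratoma (SE 0.54, limma adjusted p = 0.667) and -0.92 for ESCs minus skin (SE 0.62, adjusted p = 0.271), and the latter was called without M106p1. FGF18, a regulator of cartilage and bone growth, was 8.48 in TD31 and 6.55 to 7.42 in the other 12 cultures. TD31 was called higher than ESCs (1.36) and than skin (1.46) for FGF18. The other paracrine ligands, FGF3, FGF6, FGF20 and FGF22, spanned 0.29 to 0.46 log2 units over the cultures and none was called in the 3 comparisons.

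The endocrine ligands act at a distance with Klotho proteins, and none of the 3 was called between cell types. FGF19 signals to the liver to restrain bile acid synthesis. The C3106 arrays gave 6.82, 6.92 and 6.84, and the C3806 arrays 7.17 and 7.30. Teratoma cultures were 6.06 to 6.37 and skin 6.09 to 6.42, with no overlap. The difference was 0.90 from teratoma (SE 0.10, limma adjusted p = 7.72e-05) and 0.81 from skin (SE 0.12, adjusted p = 0.000373), under the size needed for a call. FGF21, a metabolic hormone, was 6.44 and 6.29 in ESCs, 6.55 to 7.39 in teratoma and 6.69 to 7.38 in skin, which gave -0.57 (adjusted p = 0.0751) and -0.74 (adjusted p = 0.0423). The ESC line means of FGF21 lay below every fibroblast culture, and TB31 and TC31 were called higher than ESCs when tested singly (1.00 and 1.03). FGF23, the phosphate-regulating hormone, was 6.40 to 6.70 in all cultures.

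The intracellular FGFs do not act through the receptors in the usual way and are known for binding voltage-gated sodium channels. None of the 4 was called between cell types, yet FGF12 and FGF13 differed strongly between cultures of 1 type. FGF12 read 8.51, 9.42 and 8.99 on C3106 arrays and 9.58 and 9.48 on C3806 arrays. Teratoma culture means were 6.28 in TE31, 6.64 in TB31, 6.84 in TD31, 7.75 in TC38, 8.01 in TA38, 8.09 in TA31, 8.40 in TC31 and 8.57 in TB38, and skin was 6.83 in M032, 8.13 in M088 and 9.18 in M106p1. Both ESC lines exceeded all teratoma cultures in FGF12, and M106p1 lay between the lines. The differences were 1.57 from teratoma (SE 0.65, limma adjusted p = 0.0833) and 1.20 from skin (SE 0.75, adjusted p = 0.232). Among teratoma cultures of line 3106 the range of 2.12 was called, as was the range of 2.35 among skin cultures. TB31 and TD31, low in FGF12 with TE31 and M032, were the cultures highest in muscle genes. TE31 (5.67) and M032 (5.63) were the lowest in muscle genes. The part of muscle cells was not tested.

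FGF13 followed another order. The C3106 arrays read 9.88, 9.80 and 9.68, and the C3806 arrays 9.10 and 9.90. TE31 was highest of all cultures at 10.61, followed among teratoma cultures by TA38 at 9.45, TB31 at 9.20, TD31 at 8.69, TA31 at 8.49, TC38 at 8.35, TB38 at 8.23 and TC31 at 7.67. Skin gave 8.44 in M032, 8.75 in M088 and 6.85 in M106p1. ESCs lay above skin without overlap and inside the teratoma range. FGF13 differed by 0.84 from teratoma (SE 0.70, limma adjusted p = 0.392) and by 1.63 from skin (SE 0.80, adjusted p = 0.134). TE31 and M106p1, at opposite ends for FGF13, both had high FGF5. FGF14 was 0.45 higher in ESCs than in skin (adjusted p = 0.018) and 0.24 than in teratoma (adjusted p = 0.124), and FGF11 was 7.85 to 8.20 in all cultures.

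Among the receptors, FGFR2 was higher in ESCs than in skin fibroblasts by 8.05-fold. FGFR2 is a full receptor tyrosine kinase, made in splice forms that differ between epithelia and mesenchyme. Which of these forms the probe set detects was not analysed here. ESC arrays read 9.68, 10.12 and 9.85 for C3106 and 10.47 and 9.80 for C3806. Teratoma cultures were 7.56 in TA38, 7.90 in TE31, 8.60 in TC38, 8.77 in TB38, 8.98 in TC31, 9.04 in TB31, 9.16 in TD31 and 9.62 in TA31. Skin cultures were 5.66 in M032, 7.28 in M088 and 8.05 in M106p1. From high to low, culture means ran from ESCs through most teratoma cultures to skin, with TA38 and TE31 among the skin cultures. ESCs exceeded skin by 3.01 (SE 0.68, limma adjusted p = 0.0048), a size that ran from 2.34 without M032 to 3.54 without M106p1. The difference of 1.38 from teratoma (SE 0.59, adjusted p = 0.0927) and that of 1.63 between teratoma and skin (SE 0.51, adjusted p = 0.0935) were not called, while 6 of 8 teratoma cultures tested singly were above skin. That from teratoma was called without M032, and that between teratoma and skin was called without TE31. Both were called with culture as a random block. The second brightest of 7 FGFR2 probe sets showed a difference of 1.78 between ESCs and skin (adjusted p = 0.00372). The mean over all 7 showed 0.95 and was not called, and adjusted p ran from 6.38e-08 to 0.0265 over 25 alternatives. The mean of 6 epithelial markers also differed, at 8.70 and 8.71 in ESCs, 5.54 to 6.13 in teratoma and 5.58 to 5.95 in skin. Only EPCAM, CLDN6 and ESRP2 carried this gap. CDH1 was flat (5.61 and 5.71 in the ESC lines), and KRT8 overlapped between cell types. KRT18 was lower in ESCs (6.88 and 6.86) than in skin (7.28 to 8.47). The part of these genes in the FGFR2 values was not tested.

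FGFR3, a receptor known for restraining bone growth, varied more within cell types than between them. C3106 arrays read 7.65, 9.08 and 7.56, and C3806 arrays 8.90 and 8.63. TD31 was highest at 9.27, then TC31 at 8.53, TA31 at 8.22, TC38 at 8.10, TB31 at 7.65, TB38 at 7.59, TA38 at 7.18 and TE31 at 6.72, and skin gave 6.43, 7.74 and 7.24 in M032, M088 and M106p1. The array of C3106 at 9.08 stood well above the other arrays of that line. FGFR3 differed by 0.58 from teratoma (SE 0.56, limma adjusted p = 0.470) and by 1.29 from skin (SE 0.65, adjusted p = 0.140). Its range of 2.56 among teratoma cultures of line 3106 was called. A weaker FGFR3 probe set showed -0.09 and 0.01 in the same comparisons with ESCs. On it the range among teratoma cultures of line 3106 was 0.32 and was not called.

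FGFR1, the main receptor of mesenchymal cells and of primate ESCs, was flat on this array at 7.15 to 7.47, and FGFR4 was 7.15 to 7.53. FGFR1 differed by 0.02 from teratoma (SE 0.09) and by 0.05 from skin (SE 0.11), and the other FGFR1 probe set by -0.14 and -0.05. FGFRL1 lacks the kinase domain and is regarded as a receptor that binds FGFs without passing the signal on. Its ESC arrays gave 7.68, 7.67 and 7.72 for C3106 and 7.36 and 7.78 for C3806. Teratoma cultures were 7.96 in TE31, 8.37 in TA38, 8.48 in TB38, 8.73 in TD31, 8.80 in TC31, 8.90 in TB31, 9.00 in TA31 and 9.00 in TC38, and skin arrays ran from 8.30 through 8.59 to 8.86. ESC line means lay below every fibroblast culture. FGFRL1 was lower in ESCs than in teratoma (difference -1.02, SE 0.25, limma adjusted p = 0.00842) and differed from skin by -0.96 (SE 0.29, adjusted p = 0.0204), just under the size needed. The call sits at the limit: it was lost in 10 of 25 alternatives, at -0.91 without array C3806a and also without TA31, TB31, TC38 or C3806, and the second FGFRL1 probe set showed -0.13. Adjusted p ran from 0.00017 to 0.213 over the 25.

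**Figure D2:**
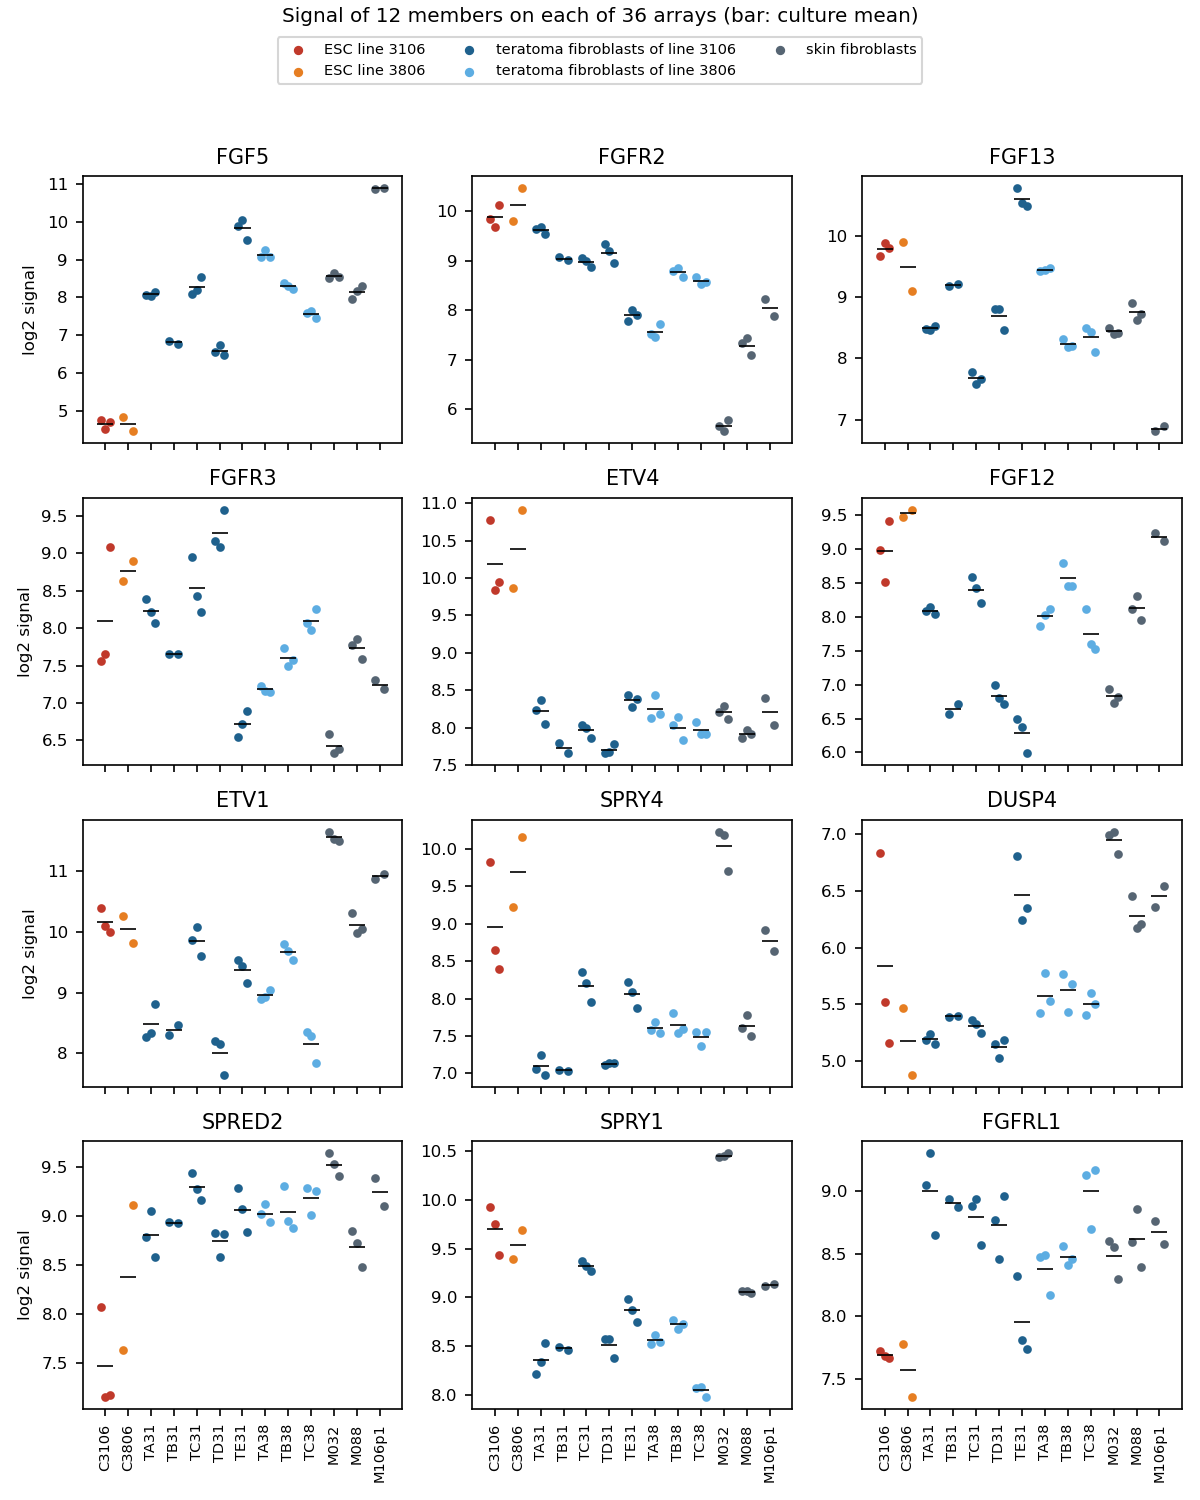
Log2 signal (vertical axes) of 12 members on each of the 36 arrays, by culture (horizontal axes) and coloured by cell type and line, with a bar at each culture mean. ESC arrays of FGF5 lie at 4.46 to 4.84 below all fibroblast arrays, ETV4 arrays of ESCs at 9.84 to 10.91 above all of them, and FGFR2 in M032 at 5.55 to 5.77 below every other culture.

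The adaptors differed little between cell types. GRB2, which joins an activated receptor to SOS1, was 10.51 and 10.74 in the ESC lines, 10.15 to 10.56 in teratoma and 10.35 to 10.45 in skin. It differed by 0.31 from teratoma (SE 0.09, limma adjusted p = 0.0197) and 0.24 from skin (adjusted p = 0.0905). SOS1, the exchange factor that loads RAS, differed by 0.32 (SE 0.11, adjusted p = 0.0339) and 0.10 (adjusted p = 0.563). The second brightest of 6 SOS1 probe sets had the opposite sign, at -0.28 (adjusted p = 0.0551) and -0.37 (adjusted p = 0.0261), and the third showed -1.08 and -0.76. SHC1, another adaptor of receptor kinases, differed by -0.24 and -0.25, and FRS3, an FGF receptor substrate, by -0.06 and -0.10, with limma adjusted p from 0.211 to 0.618. No adaptor was called.

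Of the 3 Sprouty genes, SPRY4 and SPRY1 were called higher in ESCs than in teratoma, and none was called between ESCs and skin. SPRY4 encodes an inhibitor of RAS and ERK activation whose gene is induced by FGF. C3106 arrays gave 8.65, 8.39 and 9.83 and C3806 arrays 10.16 and 9.22. Teratoma culture means were 7.04 in TB31, 7.10 in TA31, 7.13 in TD31, 7.49 in TC38, 7.60 in TA38, 7.64 in TB38, 8.06 in TE31 and 8.17 in TC31. Skin was 10.04 in M032, 8.77 in M106p1 and 7.63 in M088. ESC arrays all lay above the teratoma arrays, while skin cultures spread across both ranges. SPRY4 was higher in ESCs than in teratoma by 1.78 (SE 0.52, limma adjusted p = 0.0198) and differed from skin by 0.51 (SE 0.59, adjusted p = 0.545). Each of 8 teratoma cultures tested singly was below the ESCs, with differences of -2.29 to -1.15, and 6 were below skin. Without line C3806 the difference was 1.42 (adjusted p = 0.173), and adjusted p ran from 0.000119 to 0.173 over 25 alternatives.

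SPRY1, a further Sprouty inhibitor, read 9.75, 9.44 and 9.93 in C3106 and 9.69 and 9.39 in C3806. Teratoma cultures were 8.04 in TC38, 8.36 in TA31, 8.47 in TB31, 8.51 in TD31, 8.56 in TA38, 8.72 in TB38, 8.86 in TE31 and 9.32 in TC31, and skin cultures 9.06 in M088, 9.13 in M106p1 and 10.46 in M032. ESCs lay above all teratoma arrays in SPRY1 and between the skin cultures. The difference from teratoma was 1.05 (SE 0.37, limma adjusted p = 0.0459) and from skin 0.07 (SE 0.42, adjusted p = 0.916). This call was lost in 12 of 25 alternatives, with adjusted p from 0.000175 to 0.177. They included leaving out array C3806a (0.97, adjusted p = 0.0618) and any of TA31, TA38, TB31, TB38, TC38, TD31, TE31 or either ESC line.

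SPRY2 depended on the probe set. On the brightest, both ESC lines were at 9.92, teratoma cultures at 8.82 to 9.49 and skin at 8.49, 9.34 and 10.50, with M032 highest again. The difference was 0.87 from teratoma (SE 0.40, limma adjusted p = 0.118) and 0.48 from skin (SE 0.46, adjusted p = 0.454). The second probe set read 10.63 and 10.24 in the ESC lines, 3.88 to 4.06 in skin and 3.93 to 7.19 in teratoma. Within teratoma it was highest in TA31 (7.19), TB38 (5.52) and TA38 (5.08), which were also the cultures with the highest mean of 7 neural genes (8.05, 8.54 and 8.05). SOX2 and PAX6 set that mean apart (10.33 and 10.29 in TA31), and S100B was raised only in TB38 (7.64). SOX10, GFAP and TUBB3 varied little among teratoma cultures. STMN2 was lower in TA31, TB38 and TA38 (6.3 to 6.89) than in skin (8.32 to 10.36). The part of neural cells was not tested. The second probe set differed by 5.57 from teratoma (SE 0.73, limma adjusted p = 0.000206) and by 6.46 from skin (SE 0.84, adjusted p = 0.000184). Both carry the SPRY2 symbol in the array's annotation, and where in the gene each lies was not analysed here.

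SPRED2, which blocks the activation of RAF by RAS, was lower in ESCs. C3106 arrays gave 7.16, 7.18 and 8.07, and C3806 arrays 9.11 and 7.64. The 8 teratoma cultures gave 8.74 in TD31, 8.81 in TA31, 8.94 in TB31, 9.03 in TA38, 9.05 in TB38, 9.06 in TE31, 9.19 in TC38 and 9.30 in TC31, and skin was 8.69, 9.25 and 9.53 in M088, M106p1 and M032. Array C3806a, with the wide actin gap, was the one at 9.11, inside the fibroblast range. SPRED2 differed by -1.10 from teratoma (SE 0.20, limma adjusted p = 0.00139) and by -1.23 from skin (SE 0.23, adjusted p = 0.00154). Without C3106 the values were -0.65 (adjusted p = 0.0922) and -0.78 (adjusted p = 0.0594), and the second probe set turned the sign, with 0.28 (adjusted p = 0.0245) and 0.31 (adjusted p = 0.0242). Over 25 alternatives adjusted p reached 0.0922 and 0.0594 at most.

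**Figure D3:**
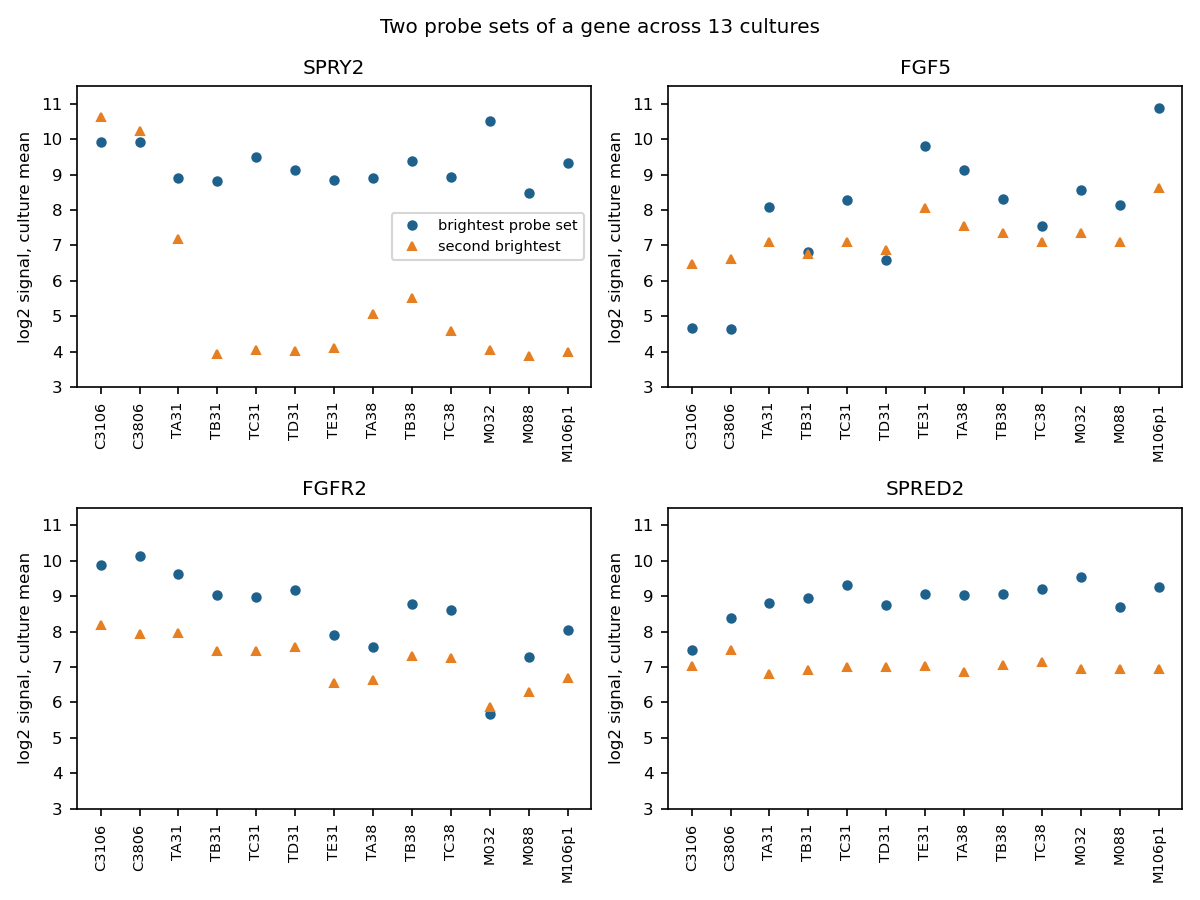
Culture means of log2 signal (vertical axes) of the brightest and the second brightest probe set of SPRY2, FGF5, FGFR2 and SPRED2 in 13 cultures (horizontal axes). For SPRY2 the second probe set falls from 10.63 and 10.24 in ESCs to 3.88 to 4.06 in skin while the first stays at 8.49 to 10.50; for SPRED2 only the first is lower in ESCs.

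DUSP4, a nuclear phosphatase that switches ERK off, was lower in ESCs than in skin. C3106 arrays gave 5.52, 5.16 and 6.83 and C3806 arrays 4.88 and 5.47. The teratoma cultures averaged 5.12 in TD31, 5.19 in TA31, 5.31 in TC31, 5.39 in TB31, 5.51 in TC38, 5.58 in TA38, 5.62 in TB38 and 6.46 in TE31, and skin arrays ran from 6.17 through 6.49 to 7.02. Line means of ESCs lay below skin, although 1 C3106 array at 6.83 lay within it, and TE31 was the sole teratoma culture at the level of skin. The difference from skin was -1.05 (SE 0.35, limma adjusted p = 0.0353) and from teratoma -0.03 (SE 0.31, adjusted p = 0.956). Teratoma minus skin was -1.02 (SE 0.26, adjusted p = 0.0602), and 5 of 8 teratoma cultures were below skin singly. The call against skin was lost in 7 of 25 alternatives, with -0.90 (adjusted p = 0.0644) without C3806a, -0.72 (adjusted p = 0.266) without C3806, -0.86 (adjusted p = 0.102) without M032 and -1.10 (adjusted p = 0.0587) without M106p1. Also among the 7 were a weaker DUSP4 probe set (-0.44, limma adjusted p = 0.21), the mean of the DUSP4 probe sets (-0.75, adjusted p = 0.0696) and all 39 arrays (-0.84, adjusted p = 0.116). The other ERK phosphatases, DUSP5 and DUSP7, differed by -0.21 and -0.20 from teratoma and -0.39 and -0.24 from skin, and were not called.

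ETV4, an ETS factor of the PEA3 group induced by FGF and ERK, was higher in ESCs under every alternative run. C3106 arrays read 9.84, 9.95 and 10.78 and C3806 arrays 10.91 and 9.87. Teratoma cultures averaged 7.71 in TD31, 7.73 in TB31, 7.96 in TC31, 7.97 in TC38, 8.00 in TB38, 8.22 in TA31, 8.25 in TA38 and 8.36 in TE31, and skin arrays ran from 7.86 through 8.08 to 8.39. All ESC arrays lay above all fibroblast arrays, and skin lay within the teratoma range. The mean was 10.29 ± 0.14 in ESCs (SD, n = 2), 8.02 ± 0.24 in teratoma (n = 8) and 8.11 ± 0.17 in skin (n = 3). ETV4 was higher in ESCs by 2.26 than in teratoma (SE 0.18, limma adjusted p = 5.58e-06) and by 2.18 than in skin (SE 0.20, adjusted p = 1.93e-05). It was called in all 25 alternatives of each, with values from 1.84 to 2.64 and 1.83 to 2.55. Teratoma minus skin was -0.08 (SE 0.15, adjusted p = 0.832).

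ETV1, of the same group, was lowest in teratoma fibroblasts. C3106 arrays gave 10.09, 9.99 and 10.38 and C3806 arrays 9.81 and 10.26. Among teratoma cultures the means were 8.01 in TD31, 8.16 in TC38, 8.38 in TB31, 8.48 in TA31, 8.95 in TA38, 9.37 in TE31, 9.67 in TB38 and 9.85 in TC31, and skin cultures 10.11 in M088, 10.91 in M106p1 and 11.55 in M032. Every teratoma culture mean lay below every ESC and skin culture mean. Teratoma minus skin was -1.98 (SE 0.46, limma adjusted p = 0.0452), and all 8 teratoma cultures were called lower than skin singly, with differences of -2.85 to -1.01. ESCs minus teratoma was 1.22 (SE 0.54, adjusted p = 0.101) and ESCs minus skin -0.76 (SE 0.62, adjusted p = 0.365). The teratoma call was lost in 13 of 25 alternatives, with adjusted p from 5.12e-06 to 0.147. Among them were leaving out M032 (-1.64, adjusted p = 0.147), M106p1 (-1.96, adjusted p = 0.129) or any of TA31, TA38, TB31, TB38, TC38 and TD31, and the second probe set (-0.75, adjusted p = 0.0577).

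**Figure D4:**
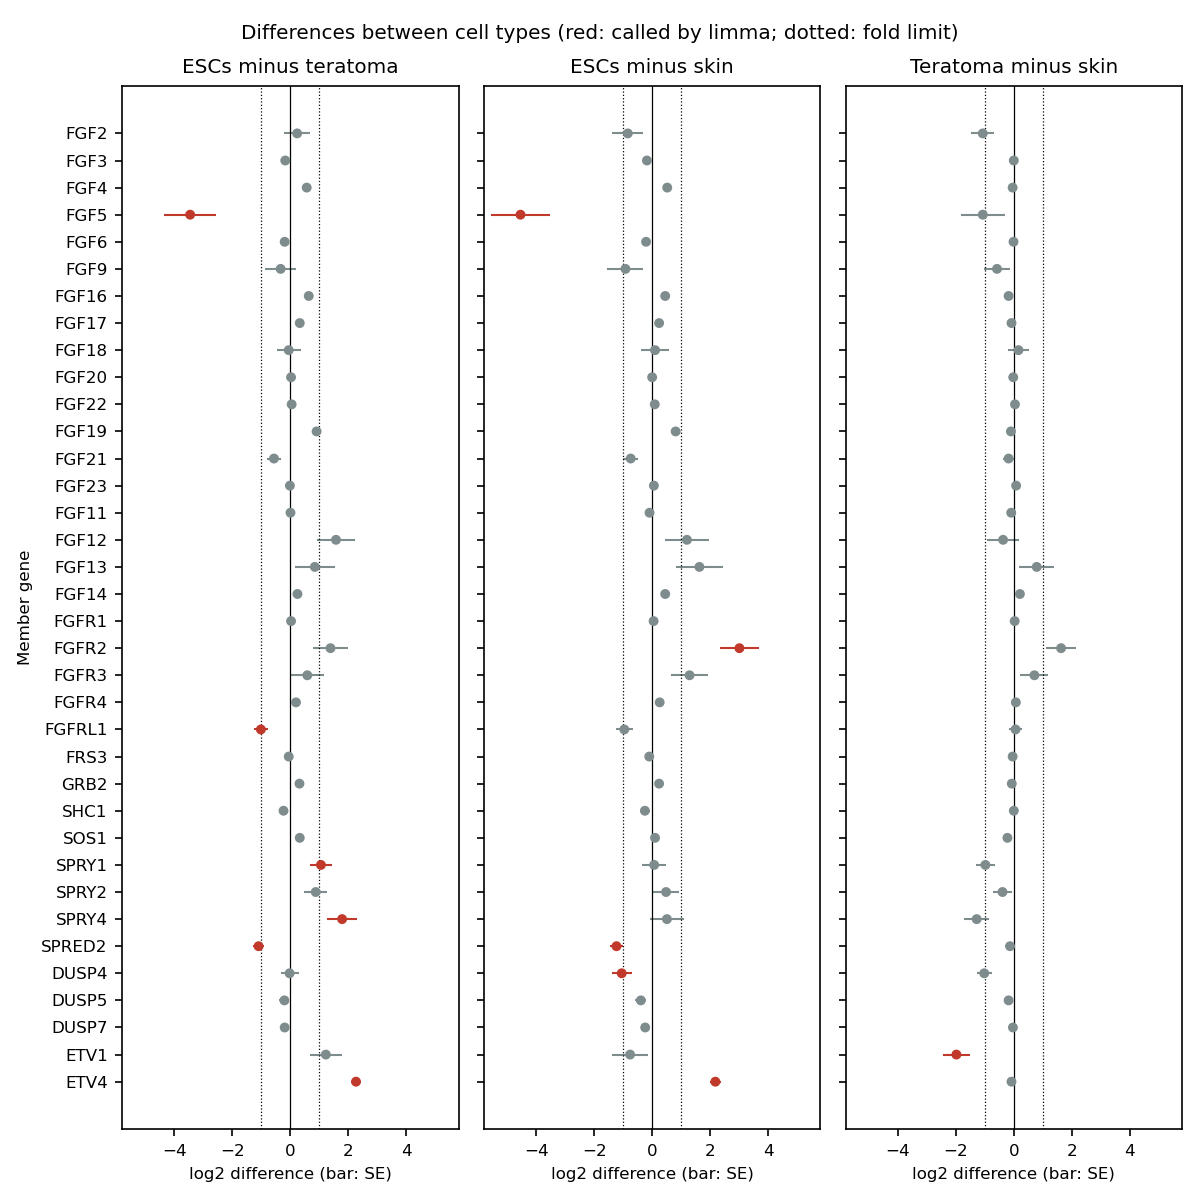
Log2 differences (horizontal axes, bars are SE) of the 36 members (vertical axis) for ESCs minus teratoma, ESCs minus skin and teratoma minus skin, with called members in red and dotted lines at -1 and 1. FGF5 lies at -3.46 and -4.54, ETV4 at 2.26 and 2.18 and FGFR2 at 3.01 against skin; most other members lie within 1 of 0.

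No member was called between the lines with the 36 arrays used, although single ESC arrays decided this for some. Between teratoma cultures of line 3806 and of line 3106 limma called 0 of 36 members, with 1 (GRB2, 0.21) at an unadjusted p under 0.05, beside 0.0425% of all genes called. For the difference between lines in ESCs minus teratoma, limma called 0 of 36 members, beside 0.0566% of all genes. FGF17, FGF4 and SOS1 had an unadjusted p under 0.05. The highest value, 1.12 for FGFR3, passed the called size but not the adjusted p. Between the ESC lines, tested over arrays, limma called 0 of 36 members, beside 1.08% of all genes, with 10 at an unadjusted p under 0.05. SPRED2, FGF4 and FGF19 had adjusted p of 0.0314, 0.0236 and 0.00665, for C3806 minus C3106 of 0.91, 0.40 and 0.38. With the array letter as a replicate block, SPRED2 and SPRY4 passed, at 1.08 and 1.03. Both were also called without C3106d or without C3806b, and DUSP5 and FGFR3 were called without C3106c. Without C3806a, FGF17 was called between the ESC lines and for the difference between lines. Tests over arrays measure only the spread between arrays of a culture, which may be technical.

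Cultures of a single type differed from each other at many members. Among the 5 teratoma cultures of line 3106, 12 of 36 members (33.3%) were called by limma's F test over arrays, beside 11.6% of all genes: FGF5, FGF13, FGFR3, FGF12, ETV1, FGF18, FGFR2, FGF2, FGF9, DUSP4, SPRY4 and FGFRL1, with ranges of culture means from 1.04 to 3.23. On second brightest probe sets DUSP4, ETV1, FGFR3 and FGFRL1 lost the call among cultures of line 3106, and SPRY2 gained it. With all 39 arrays ETV1, FGF5 and SPRY4 lost it. Among the 3 cultures of line 3806, 4 (11.1%) were called beside 5.09%, and these were FGF5, FGFR2, ETV1 and FGF13. Among the 3 skin cultures 11 (30.6%) were called beside 8.77%. They were FGF5, FGF9, SPRY4, FGFR2, FGF12, SPRY2, FGF13, FGF2, ETV1, SPRY1 and FGFR3. The skin differences had a recurring pattern: M032 was highest of the 13 cultures for SPRY1, SPRY2, SPRY4, ETV1, DUSP4, SPRED2 and FGF9 and lowest for FGFR2 and FGFR3, and M106p1 was highest for FGF5 and FGF2 and lowest for FGF13. Smooth muscle markers also differed between them, with a mean of 9.83 in M032, 10.72 in M088 and 11.1 in M106p1 for 5 genes, and their part was not tested.

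Each teratoma culture was also set against the ESC lines and against skin over its arrays. TA31 differed from ESCs at 9 members and from skin at 8, beside 16.0% and 6.05% of all genes. TB31 differed at 10 and 9 members (16.7% and 6.31% of all genes). TC31 differed at 8 and 6 members (18.0% and 5.70%). TC31 had the highest ETV1, SPRY1 and SPRY4 of the teratoma cultures. TD31 differed at 8 and 10 members (17.1% and 7.95%), and TE31 at 9 and 3 members (20.3% and 2.51%). The 3 members that set TE31 apart from skin were FGF13 (difference 2.59), FGF12 (-1.76) and ETV1 (-1.48). TA38 differed at 10 and 3 members (17.0% and 4.75%), TB38 at 6 and 5 (16.9% and 6.22%) and TC38 at 10 and 8 (16.3% and 6.64%). FGF5, ETV4 and SPRY4 were called against ESCs in all 8 cultures.

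Further genes of the route were taken from a list of 67 measured genes that are not members. The list was chosen with earlier results of these data known, so its shares describe the listed genes only. Of these, 5 were higher and 14 lower in ESCs than in teratoma (28.4% called, beside 14.5% of all genes). Against skin 9 were higher and 14 lower (34.3%, beside 20.0%), with medians of -0.30 and -0.31 over the list against 0.02 and 0.03 over all genes. Among 28 cofactors and heparan sulfate genes, the sulfatase SULF1, which trims the heparan sulfate that FGFs need, was lower in ESCs than in teratoma (log2 difference -3.46, limma adjusted p = 0.0117) and than in skin (-3.28, adjusted p = 0.027). The related SULF2 showed -1.91 and -1.19 and the adhesion protein FLRT2 -2.19 and -2.05, while the glypicans GPC4 (1.39 and 1.88) and GPC3 (1.30 and 1.89), heparan sulfate proteins of the cell surface, were higher. Among 21 genes of the RAS, PLC and PI3-kinase routes, the scaffold KSR1 (1.72 and 2.11) and the ERK-activated kinase RPS6KA1 (1.40 and 1.45) were higher in ESCs and the PI3-kinase subunit PIK3R1 (-2.12 and -3.31) lower. PIK3R1 was the single listed gene called between teratoma and skin, at -1.19 (limma adjusted p = 0.0263).

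The remaining 18 listed genes are further feedback and target genes of ERK, and 7 were lower and 1 higher in ESCs than in teratoma (44.4% called, beside 14.5% of all genes, of which 8.18% were lower and 6.28% higher). DUSP1, an inducible phosphatase of stress kinases and ERK, was 8.71 in ESCs, 11.66 in teratoma and 12.22 in skin, and differed by -2.93 and -3.50. DUSP14 showed -2.12 and -2.81 and the cell cycle gene CCND1 -1.22 and -2.68. EGR2, an immediate early transcription factor, showed -2.24 from teratoma and -0.69 from skin, the latter not called. ETS2, an ETS factor activated by ERK, was higher in ESCs by 1.68 and 2.60. Genes known to answer ERK lay on both sides, with ETV4, SPRY4 and ETS2 higher in ESCs than in teratoma and DUSP1, DUSP14, EGR2 and CCND1 lower.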

How the data were processed

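The authors deposited 1 log2 signal per probe set and array, made with GCOS and RMA per the submitters' processing notes; the sources used here do not give versions, settings or a genome build. Per the labels, total RNA was extracted with Trizol and labelled by in vitro transcription from an oligo(dT) primer. RMA makes array distributions alike (medians 6.25 to 6.48), so an overall change of RNA level cannot show. Arrays have no read depth, so precision is set by how many cultures there are. Of 52865 probe sets, 24956 carried 1 gene name in the platform annotation, for 14132 genes. Each gene was represented by its brightest probe set (mean of all 39 arrays). Columns of no sample came to 0.

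A linear model in limma 3.58.1 (R 4.3.3) took the culture means in 5 classes: C3106, C3806, TA31 to TE31, TA38 to TC38, and skin. It had 8 residual degrees of freedom; each ESC line was assumed to vary like the fibroblast cultures. Single cultures, ESC lines and ranges among cultures were tested over arrays (23 residual degrees of freedom). Tests were two-sided, with Benjamini-Hochberg adjustment over all genes and a threshold of 0.05 and a log2 difference of 1. The procedure was also run on simulated data with a smaller spread between cultures than was measured among the fibroblast cultures. That run does not measure the error rate on these data. Figures used matplotlib 3.10.9. Members with full values were those called between cell types, or among teratoma cultures of a line with a range of at least 2; FGF2, SPRY2 and other unlisted members were described after their values were seen. Of pathway genes, up to 3 per sub-list and comparison with the largest called difference were named. The members and lists were chosen with earlier results of these data known. Highest correlation of 2 arrays was 0.9983, and no columns were identical. Alternatives tried were all 39 arrays, array C3806a left out, other probe sets, a filter on dim genes (highest culture mean of at least 6), other normalizations and fits, a replicate block, and leaving out each culture or array. Leaving out cultures TB31 and TD31, and choosing probe sets over the 36 arrays, were added after seeing the data. No sequences or coordinates were used.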

Additional observations from a re-analysis of the deposited data

Results flagged for a closer look

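Of 72 groups of 5 values tested for a lone extreme value (the ESC arrays and the teratoma cultures of line 3106, for each member), 8 held one whose gap to the nearest other value exceeded 0.71 of the group's range. Chance alone gives about 1 in 20 such groups. In TE31, 5 of them were found. DUSP4 was 6.46 in TE31 and 5.12 to 5.39 in the other cultures of the line. FGF11 was 8.14 there against 7.85 to 7.87, FGF19 was 6.37 against 6.06 to 6.13, and FGF3 was 7.29 against 7.05 to 7.10. FGFRL1 was low in TE31, at 7.96 against 8.73 to 9.00. In TD31, FGF18 was 8.48 against 6.67 to 7.12. Array C3806a was low among the ESC arrays for FGF13, at 9.10 against 9.68 to 9.90, and for FGFRL1, at 7.36 against 7.67 to 7.78. That array also had the actin gap of 3.89, and the part of it in these values was not tested.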

How the results depend on the processing

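Counts of called members moved by over 1.5 times as follows. With all 39 arrays the count was 2 for ESCs against teratoma (ETV4 and FGF5), 0 for teratoma against skin, 1 between ESC lines, 1 among teratoma cultures of line 3806, 7 among skin cultures and 78 over the single-culture comparisons (122 with 36 arrays). Without array C3806a it was 1 between ESC lines and 1 for the line interaction (FGF17 in both). The second brightest probe sets gave 0 for teratoma against skin, 1 among cultures of line 3806 and 7 among skin cultures. With them the count for ESCs against teratoma stayed at 6, but FGF5, FGFRL1 and SPRED2 lost the call and FGF11, FGF12 and SPRY2 gained it. For ESCs against skin it was 4, with DUSP4, FGF5 and SPRED2 lost and FGF11 and SPRY2 gained. No member was called lower in ESCs on these probe sets in either comparison. The mean of all probe sets gave 3 for ESCs against skin and 2 among cultures of line 3806. For teratoma against skin, median centring gave 0, repeated quantile normalization 2, the trended robust prior 0, 3 classes 2, and leaving out TB31 and TD31 (added after seeing the data) 0. Culture as a random block (correlation 0.47) gave 8 for ESCs against skin, with FGF12, FGF13 and FGFR3 gained. It gave 5 for teratoma against skin, with DUSP4, FGF2, FGFR2 and SPRY4 gained. For ESCs against teratoma this block gave 9, a smaller move, with ETV1, FGF12 and FGFR2 gained. The replicate block gave 2 between ESC lines; the letters are only labels and this block changed no other count by that much. Leaving out 1 culture gave 2 to 7 for ESCs against teratoma (2 without C3806), 4 to 6 for ESCs against skin, 0 to 4 for teratoma against skin (4 without TE31, 2 without M088), and 0 between the lines' teratoma cultures and for the interaction. Leaving out 1 array gave 0 to 2 between ESC lines, 11 to 13 and 4 to 5 among teratoma cultures of lines 3106 and 3806, 11 among skin cultures and 120 to 125 over single cultures. SPRED2 reversed on its second probe set, to 0.28 against teratoma and 0.31 against skin. For the 12 members given full values by rule, 3660 values were tested under alternatives. Of these, 82 lost the call with the sign kept, 27 gained it, and the 2 reversed SPRED2 values also lost it. The sign differed from the reported value in 85, of which 83 belong to values that were not called and 2 are those of SPRED2. The cause of these shifts was not tested.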

Other observations

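The 3 arrays left out were set against each culture over the 36 members. C3806c lay 1.04 from its own culture and 0.12 from TC38, M106p1f lay 1.30 from its own and 0.11 from TD31, and TB31c lay 1.18 from its own and 0.14 from M106p1 (root mean square, log2 units). FGF5 read 7.68 on C3806c, 6.44 on M106p1f and 10.93 on TB31c, against 4.65, 10.89 and 6.81 for the cultures they are labelled as. ETV4 read 8.01 on C3806c against 10.39 for its culture. FGF18 read 8.72 on M106p1f against 6.55 for its culture. Of the 36 arrays used, 32 lay nearest to their own culture, and the other 4 were ESC arrays nearest to the other ESC line.

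Some weaker probe sets of ligands differed between cell types where the brightest did not. The second FGF11 probe set was 7.53 and 7.23 in the ESC lines, 5.95 to 6.79 in teratoma and 6.17 to 6.56 in skin, which gave 1.15 from teratoma (SE 0.21, limma adjusted p = 0.00159) and 1.03 from skin (SE 0.24, adjusted p = 0.00647), while the brightest showed 0.00 and -0.09. The second FGF12 probe set gave 1.80 from teratoma (SE 0.55, adjusted p = 0.0268) and 1.49 from skin (adjusted p = 0.0888), beside 1.57 and 1.20 on the brightest.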
